A study of Gallus gallus with 2 samples.

Results

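The stretch of chicken chromosome 3 from 42300001 to 42940000 was examined as a chromatin domain of 640 kb in the DACT2-SMOC2 locus. It was chosen by the number of contacts crossing each position: its limits are positions that few contacts crossed in these same libraries, so its insulation from the neighbouring sequence is how it was chosen and not a result. Its members were all pairs of restriction fragments that were listed in at least 1 library, had both midpoints within the limits and were not neighbours in the order of fragments. There were 15908 such pairs, of 146631 non-adjacent pairs listed for the whole locus. The interzone list held 10786 of them and the phalange list 7418.

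Proximity was measured by low-input targeted chromatin capture. In this assay cross-linked chromatin is cut, here with the restriction enzyme ApoI, ends that lie near each other are joined, and the joined fragments of a locus are pulled out with baits and sequenced. The 2 tissues came from digit 3 of the hindlimb of White Leghorn chick embryos at stage HH32, after 7.5 days of incubation, with no genetic or chemical treatment named in the labels. One sample was the dissected joint interzone and the other the phalange beside it. Each was a pool of 100 specimens and gave 1 library, so nothing below has a replicate check, and differences are between 2 libraries.

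Vertebrate chromosomes fold into domains within which sequences meet more often than across the limits. Such domains are commonly set by cohesin, which draws out loops of chromatin, and by CTCF, which stops it, and they restrict which enhancers reach which promoters. The interzone is the band of flattened mesenchymal cells that marks a future synovial joint and contributes to articular cartilage, whereas the phalange is cartilage that forms the skeletal element. SMOC2 is a secreted matrix-associated calcium-binding protein and DACT2 an intracellular modulator of Wnt and TGF-beta signalling. Positions are those of the deposited lists. The build named in the submitters' processing notes is galGal5. No sequence or annotation of that build was used here, so the genes within the domain are not named.

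The domain held 1157 of the 6569 fragments of the locus, with a median length of 355 bp, an interquartile range of 129 to 740 bp and a longest fragment of 4847 bp. Of 1156 gaps between neighbouring fragments, 1154 were 6 bases wide, the size of the recognition site of ApoI. Of the 667590 possible non-adjacent pairs in the domain, 1.62% were listed for the interzone and 1.11% for the phalange. Each listed pair carried a signal with no stated unit. It lay between 6.82e-05 and 0.118 for the interzone and between 7.19e-05 and 0.196 for the phalange. The read depth behind a pair is unknown, and the number of listed pairs was therefore used beside the signal.

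The number of partners of a fragment followed its length. Counting partners inside the domain at 20 kb or more, the 220 fragments under 100 bp had a mean of 0.777 for the interzone and 0.391 for the phalange. The 271 fragments of 800 bp or more had 18.8 and 12.4. Across the 1157 fragments the Spearman rho of partners on length was 0.818 for the interzone and 0.821 for the phalange. It was 0.850 between the partner numbers of the 2 libraries. These are descriptions across fragments that share a library. Stretches cut into few long fragments thus hold more listed pairs per possible pair. Expected numbers are therefore given in 2 forms. The distance expectation is the mean over the locus per possible pair at the same distance, and the coverage-scaled expectation also multiplies by the number of partners, over the whole locus, of both fragments.

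Contacts in the domain thinned out steadily with distance in both tissues. Under 5 kb, 31.5% of possible pairs were listed for the interzone (2953 pairs, Wilson 95% interval 30.6 to 32.4) and 31.4% for the phalange (2942 pairs, 30.4 to 32.3). Between 20 kb and 100 kb it was 1.85% for the interzone (2790 pairs, 1.78 to 1.92) and 0.990% for the phalange (1494 pairs, 0.941 to 1.04). Between 400 kb and 640 kb, the widest separations the domain allows, it was 0.333% (324 pairs, 0.298 to 0.371) and 0.235% (229 pairs, 0.207 to 0.268). The libraries were thus alike in their share over all pairs under 5 kb, and the interzone list was the longer beyond. Within that range they differed in both directions. In the 500 bp class around 1.25 kb, 54.1% were listed for the interzone and 58.0% for the phalange. Around 4.75 kb it was 14.5% and 8.69%. Intervals here and below cover counting error only and treat listed pairs as independent.

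**Figure D1:**
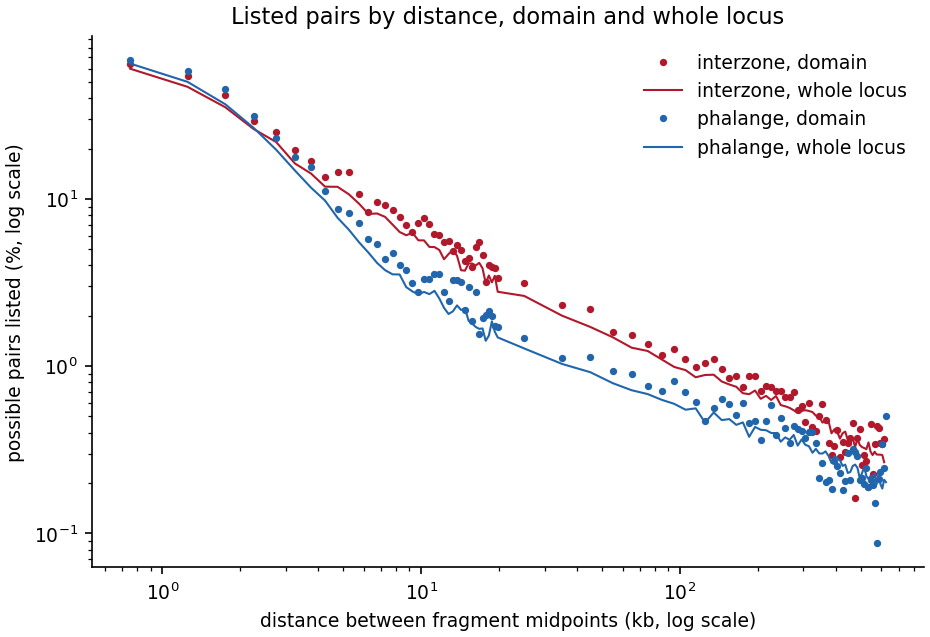
Percentage of possible fragment pairs that were listed (vertical, log scale) against the distance between fragment midpoints in kb (horizontal, log scale), in classes of 500 bp under 20 kb and of 10 kb above. Points are the domain and lines the whole locus, red for the interzone and blue for the phalange; most points from 5 kb to 200 kb lie above the line of their library, and from 400 kb on they scatter around it.

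The domain was denser than the locus as a whole at short and middle distances and level with it at the longest. By listed pairs it stood at 1.18 times the locus for the interzone and 1.19 times for the phalange from 20 kb to 100 kb. From 100 kb to 200 kb both libraries stood at 1.18 times, and from 400 kb to 640 kb at 1.01 and 1.03 times. Over all pairs 20 kb or more apart, the interzone list held 5901 pairs against 5209 expected (observed over expected 1.13, exact Poisson 95% interval 1.10 to 1.16, with the expected number taken as fixed). The phalange list held 3443 against 3032 (1.14, 1.10 to 1.17). By signal the ratios were 1.07 for the interzone and 1.03 for the phalange, a log2 ratio of 0.06. With the coverage-scaled expectation the same ratios of signal were 0.900 and 0.836. The excess of signal over the locus was therefore present only when fragment coverage was left out of the expectation. Coverage counts the domain's own contacts as well, so scaling for it also divides out part of any excess. The scaled ratio of the whole domain is given for signal only, not for listed pairs. The excess is no independent finding, as the limits were drawn from the same contacts.

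For comparison, the neighbouring domain from 41950001 to 42300000 had 1.12 times the expected listed pairs for the interzone and 1.19 times for the phalange. The domain before it, from 41630001 to 41950000, had 0.890 and 0.850 times. By signal, however, that domain stood above the one examined. It had 1.27 against 1.07 for the interzone, and was higher still for the phalange, against 1.03. By listed pairs the left flank (40150001 to 40840000) was also denser than the domain examined, at 1.35 and 1.43. So was the stretch from 40840001 to 41230000 in both libraries. The stretch from 41230001 to 41630000 and the right flank were below the expectation in both.

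In 10 kb bins, signal fell with distance somewhat faster inside the domain than over the locus, which was not particular to the domain. From 20 kb to 500 kb the slope of log10 mean signal per 10 kb bin pair on log10 distance was -0.733 for the interzone and -0.669 for the phalange. Over the whole locus it was -0.684 and -0.604 in the same range. The right flank of the locus had -0.766 and -0.660 and the left flank -0.662 and -0.549. No slope of the locus in wider bins is given here. The difference between the libraries inside the domain was -0.0640, and it all but disappeared in 20 kb bins (-0.00423), where the slopes were -0.814 and -0.810.

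Short pairs carried most of the domain's signal, more so in the phalange. Pairs under 5 kb held 80.3% of it for the interzone and 92.0% for the phalange, with summed signals of 10.0 and 15.4. Pairs at 100 kb or more held 7.71% and 3.45%, a difference of 4.27 percentage points in favour of the interzone. Among pairs 20 kb or more apart the order was the opposite, since pairs at 100 kb or more then held 53.0% in the interzone library and 56.2% in the phalange library, a difference of -3.18 percentage points. The order of the tissues in long-range signal thus turned with the short pairs in the denominator. The median signal of a listed pair 20 kb or more apart was 0.000257 for the interzone and 0.000249 for the phalange.

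Few individual long pairs were listed in both libraries, whose lists are sparse at this range. Of the pairs 20 kb or more apart, 147 were listed in both, or 2.49% of the longer interzone list and 4.27% of the shorter phalange list. Over the whole locus 1007 pairs were, 1.49% and 2.33% of the lists. The locus shares include pairs farther apart than the 640 kb of the domain. Inside the domain the shared part fell with distance. It was 3.55% of interzone and 6.63% of phalange pairs from 20 kb to 100 kb, and 0.926% and 1.31% from 400 kb to 640 kb. The domain and the locus are therefore not alike in distance here, and nothing is read from their difference. The share of possible pairs listed fell with distance as well. It was 1.85% for the interzone and 0.990% for the phalange from 20 kb to 100 kb, and 0.333% and 0.235% from 400 kb to 640 kb. In both ranges the shared part of each list was above the share that the other library listed. The fall of the shared part is thus not read as less agreement between the libraries. Under 5 kb, 1955 pairs of the domain were in both, or 66.2% and 66.5%. Of the 147 pairs, 53 lay in the leftmost 280 kb. The share of all listed pairs that lay there was not set beside this number, so nothing is read from it. At 100 kb or more there were 48 such pairs in the domain, the longest spanning 457 kb.

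The repeated long pair of highest geometric mean signal joined a 351 bp fragment at 42743607 to 42743957 with a 76 bp fragment at 42874468 to 42874543, which is 131 kb away. Its signal was 0.000716 for the interzone and 0.000716 for the phalange. The next joined 42596900 to 42597760 with 42714807 to 42715419 over 118 kb, with 0.000528 in each library. The third joined 42386007 to 42387828 with 42478246 to 42480368 over 92.4 kb, with 0.000416 for the interzone and 0.000561 for the phalange. The fourth, 34.6 kb from 42482560 to 42484179 to 42517031 to 42518828, had 0.000459 and 0.000472. The fifth, 65.0 kb from 42745798 to 42747342 to 42811482 to 42811565, had 0.000478 and 0.000424. Higher single values were common, since 63 interzone and 38 phalange pairs of the domain at this range were above 0.001 in their own library. The normalization of the signal is not given, so the order of the repeated pairs is not read as an order of contact strength.

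To see the folding inside the domain, pairs were summed in 16 bins of 40 kb, numbered 1 to 16 from the left limit. Bin 1 runs from 42300001 to 42340000 and bin 16 from 42900001 to 42940000. The map showed the same layout in the interzone and the phalange. A left part (bins 1 to 7, 42300001 to 42580000) and a right part (bins 11 to 16, 42700001 to 42940000) were each enriched in internal contacts, and contacts between them were together under the expectation. These parts were read off the map after it had been seen, and their values are descriptions.

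**Figure D2:**
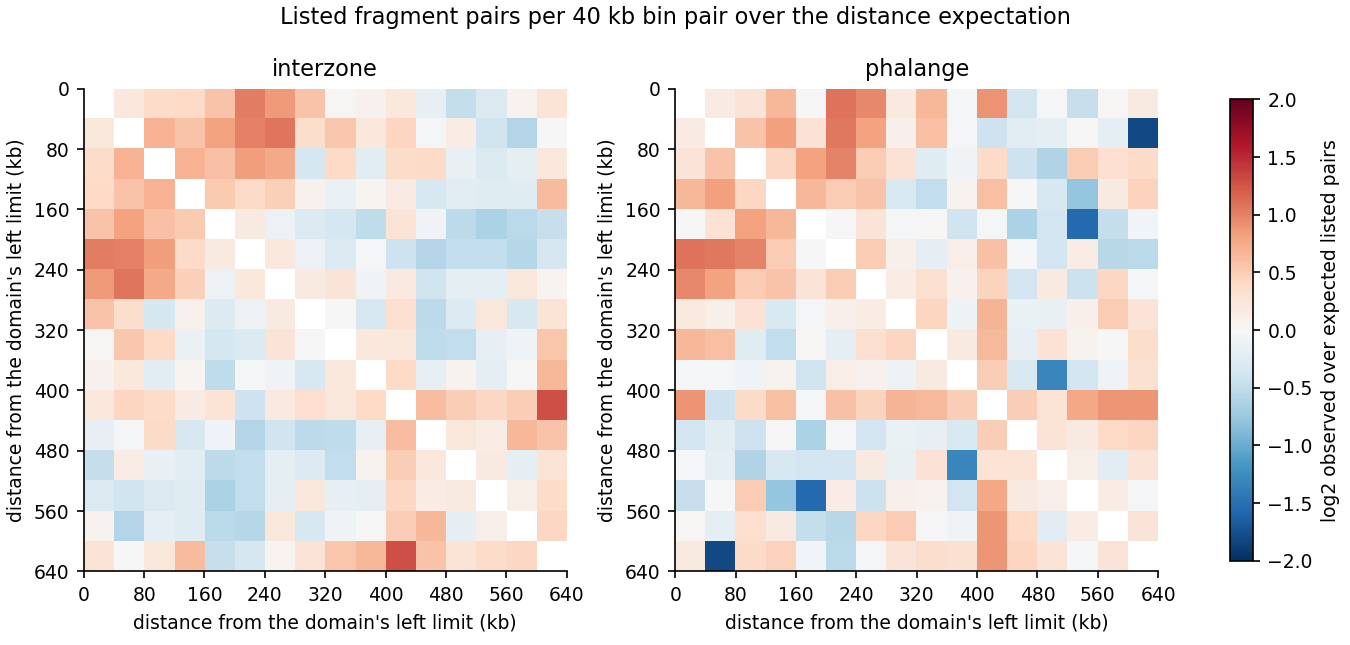
Log2 ratio of listed pairs to the distance expectation for each pair of 40 kb bins, interzone on the left and phalange on the right, with both axes in kb from the left limit of the domain; red is above and blue below the expectation, and same-bin squares are blank. In both libraries a red block joins 0 to 80 kb with 200 to 280 kb, and the square joining 400 to 440 kb with 600 to 640 kb is dark for the interzone and paler for the phalange.

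In the left part, the 21 bin pairs together held 1690 interzone pairs, 1.43 times the distance expectation (exact Poisson 95% interval 1.36 to 1.5). They held 957 phalange pairs, also 1.43 times (1.34 to 1.53), and in each library 20 of the 21 were above 1. In the right part, the 15 bin pairs held 1630 interzone pairs, 1.27 times the expectation (1.21 to 1.33), and 862 phalange pairs, 1.21 times (1.13 to 1.30). Of these, 14 for the interzone and 13 for the phalange were above 1. Between the parts, 42 bin pairs held 873 interzone pairs, 0.909 times the expectation (0.850 to 0.971), and 593 phalange pairs, 0.946 times (0.872 to 1.03).

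With the coverage-scaled expectation all 3 values were lower and the right part stood above the left. The left part then stood at 1.07 for the interzone and 1.01 for the phalange, the right part at 1.16 and 1.10, and contacts between them at 0.758 and 0.767. By signal over the distance expectation the right part was also the higher, at 1.24 against 1.22 in the interzone and 1.23 against 1.11 in the phalange. Which part was the denser thus turned with the measure, and contacts between the parts were the lowest of the 3 under each, at 0.924 and 0.890 by signal. Most bins of the left part are cut into fewer and longer fragments than most bins of the right. In the left part, bins 2 to 7 held 59 to 72 fragments each, but bin 1 held 82. In the right part, bins 12 to 16 held 80 to 83. The 3 bins between the parts (42580001 to 42700000) stood at 1.02 among themselves in the interzone (342 pairs) and 1.17 in the phalange (213 pairs). Bin 11 was the sparsest, with 52 fragments of 759 bp on average.

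By the distance expectation, the strongest block of contacts in the left part joined its ends. Bins 1 and 2 (42300001 to 42380000) with bins 6 and 7 (42500001 to 42580000) held 247 interzone pairs against 124 expected, a ratio of 1.98 (1.74 to 2.25). In the phalange they held 152 against 76.6, also 1.98 (1.68 to 2.33). All 4 bin pairs of this block were above 1.7 in both libraries. The block was picked from this same map as its strongest, so intervals that exclude 1 are no support for it. With the coverage-scaled expectation the ratios of the block were 1.49 and 1.40. Bin 2 with bin 7 then stood at 1.41 for the interzone and only 1.08 for the phalange. Bin 3 with bin 6, outside the block, stood at 1.23 and 1.35, so in the phalange it was the higher of these pairs.

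Within that block, bin 1 with bin 6 over 200 kb held 73 interzone pairs (2.03, 1.59 to 2.56) and 47 phalange pairs (2.11, 1.55 to 2.81). It ranked the third for the interzone and the first for the phalange of the 104 bin pairs 80 kb or more apart with at least 20 listed pairs, and the first in both with the coverage-scaled expectation (1.69 and 1.67). Bin 2 with bin 7 held 55 interzone pairs (2.11) and 28 phalange pairs (1.75). Bin 2 with bin 6 held 61 (2.01) and 38 (2.08). Just outside the block, bin 3 with bin 6 held 61 (1.78) and 40 (1.98), which in the phalange was above bin 1 with bin 7 (1.94) and bin 2 with bin 7. In bins of 20 kb the highest value inside the block joined 42320001 to 42340000 with 42520001 to 42540000 in the interzone, with 27 pairs (3.38) against 8 in the phalange (1.63). In the phalange it joined 42340001 to 42360000 with 42520001 to 42540000, with 12 pairs (3.96) against 15 in the interzone (3.01). At this width the partner on the right was the same. In bins of 10 kb the highest values lay apart, at 42350001 with 42530001 in the interzone (9 pairs, 5.48, against 4 in the phalange, 4.01) and at 42330001 with 42570001 in the phalange (7 pairs, 6.82, against 2 in the interzone, 1.17). The peak inside the block thus depended on the bin width and rests on few pairs.

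By the distance expectation, the highest value of the right part joined its ends as well. Bin 11 (42700001 to 42740000) with bin 16 (42900001 to 42940000) held 69 interzone pairs against 28.1 expected, the highest ratio of the interzone map at 2.45 (1.91 to 3.10). In the phalange it held 32 against 17.3, or 1.85 (1.26 to 2.61), the sixth highest. With the coverage-scaled expectation it was 1.57 and 1.12. In the phalange bin 11 with bin 15 was nearly level by distance, at 1.84, and higher with the coverage-scaled expectation, at 1.19. The phalange thus did not set the end bin apart from the bin before it. For bin 11 with bin 16 the log2 ratio between the libraries was 0.40. The interzone's 68.3% of both libraries' pairs (Wilson 95% interval 58.7 to 76.6) included the 61.8% of the same distance in the locus.

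Of the 104 bin pairs, 7 reached 1.5 times the distance expectation in both libraries, or 6.73%, where 9.04% of 1029 such bin pairs of the locus did. Single-library counts were 12 for the interzone (11.5%, locus 14.6%) and 17 for the phalange (16.3%, locus 17.0%). The domain did not hold more strong bin pairs than the locus, and the limits were drawn from the same contacts, so nothing is read from these shares. Of the 7, 6 were bins 1 and 2 with bins 6 and 7, bin 3 with bin 5 and bin 3 with bin 6. The other was bin 11 with bin 16. The 6 lie in the left part, which was drawn on this same map, so nothing is read from their position. With the coverage-scaled expectation 1 reached 1.5 in both libraries, bin 1 with bin 6, where 6.51% of the locus did.

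The first and last bin of the domain did not stand out as a pair. Bin 1 with bin 16, 600 kb apart, held 23 interzone pairs (1.21, 0.769 to 1.82) and 15 phalange pairs (1.13, 0.632 to 1.86), and both intervals include 1.

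High values of bins 6 and 11 did not stop at the limits of the domain, unlike those of bins 1 and 16. Bin 6 (42500001 to 42540000) was followed outwards as a viewpoint, as were bins 1, 11 and 16, all chosen after the map had been seen. To its left, all 13 partner bins up to 520 kb away were above the expectation for the interzone (median 1.68) and 11 of 13 for the phalange (median 1.59). Beyond the left limit alone it was 8 of 8 (1.41 to 2.22) and 7 of 8 (0.979 to 2.55). To its right inside the domain, 1 of 10 partner bins was above 1 for the interzone (median 0.771) and 5 of 10 for the phalange (median 1.02). With the coverage-scaled expectation, 0 of those 10 were above 1 in either library, and 11 and 10 of the 13 on the left were. High values beyond the left limit were not particular to bin 6. Bin 11 was above 1 with each of the same 8 bins in both libraries. Its values were 1.16 to 1.94 for the interzone and 1.25 to 3.06 for the phalange. With the coverage-scaled expectation, bin 6 stood at 1.02 to 1.70 and 0.718 to 1.42 with these 8 bins. Bin 11 then stood at 0.665 to 1.31 and 0.758 to 1.44.

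Bin 1 (42300001 to 42340000) behaved differently from bin 6 at the left limit. With the 40 kb just outside, 42260001 to 42300000, it held 145 interzone pairs (0.768) and 44 phalange pairs (0.445). Bin 6 with the same outside bin held 76 (1.94) and 34 (1.39), at a longer distance. The low crossing at the left limit, which the choice of the domain used, was seen from bin 1. That measure took pairs within 100 kb on each side, and bin 6 lies farther than that from the limit. Its values therefore cannot say how far into the domain the low crossing is seen.

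Bin 11 reached its highest value outside the domain. With 42980001 to 43020000 in the right flank, 280 kb away, it held 53 interzone pairs (3.73) and 38 phalange pairs (4.04). Its contact with 42940001 to 42980000 was 2.95 with 50 pairs and 2.64 with 28 pairs. In both libraries bin 11 thus stood higher with each of these bins across the right limit than with bin 16. With the coverage-scaled expectation the value at 42980001 was 2.10 for the interzone and 1.93 for the phalange, against 1.57 and 1.12 for bin 16. The partner bin held 50 fragments with a mean length of 791 bp, so both ends of this contact are stretches of long fragments. Bin 16 itself met 42980001 to 43020000 at 1.15 (53 pairs) and 1.56 (41 pairs). Over the 8 bins beyond the right limit its median was 0.853 for the interzone and 0.887 for the phalange, with 3 above 1 in each. With the coverage-scaled expectation 1 and 4 were above 1.

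**Figure D3:**
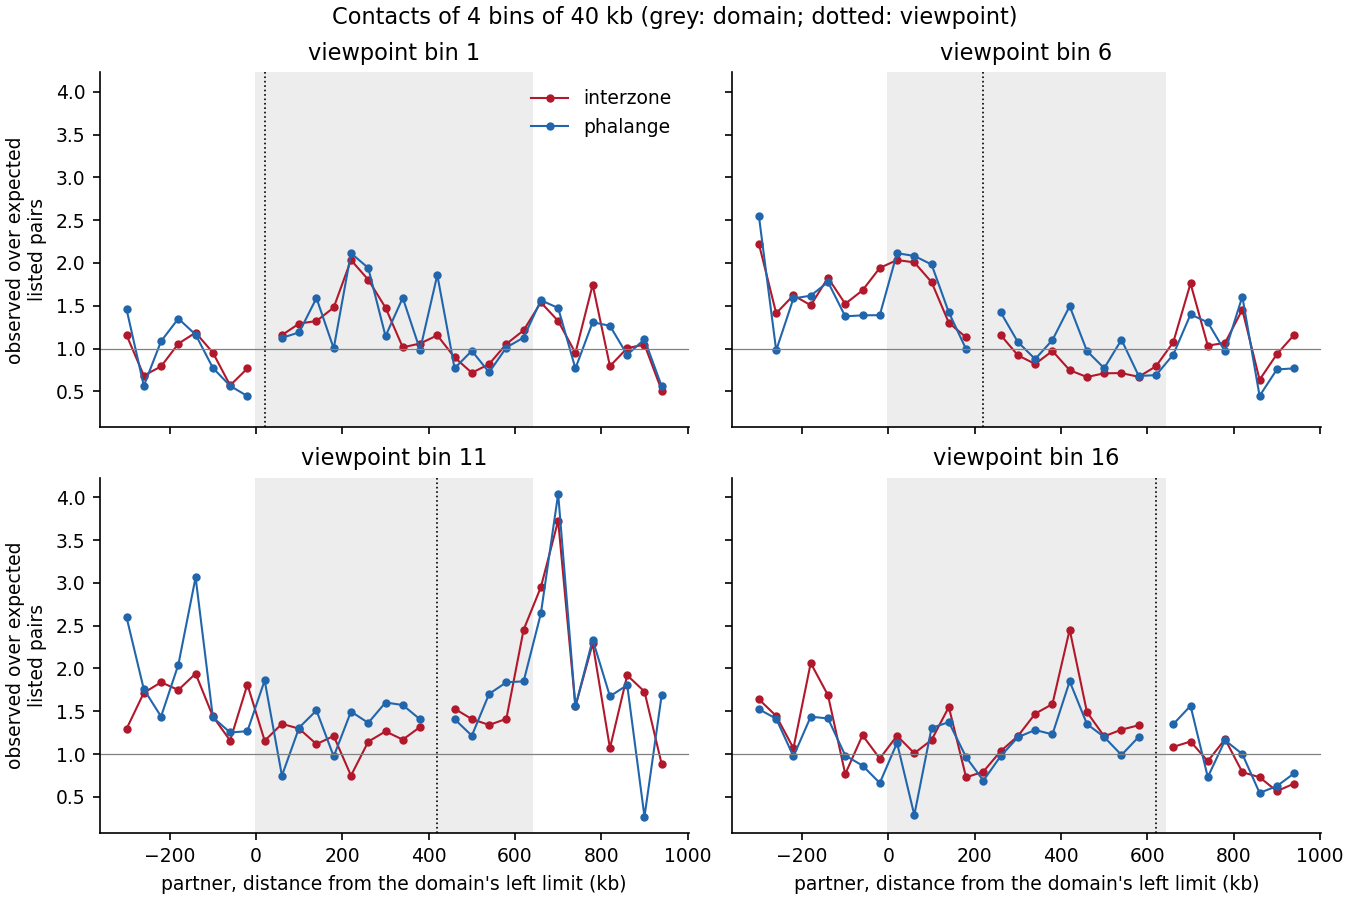
Listed pairs over the distance expectation (vertical, no unit) for bins 1, 6, 11 and 16 with every 40 kb bin from 320 kb before to 320 kb after the domain (horizontal, kb from its left limit), red for the interzone and blue for the phalange; grey marks the domain, the dotted line the viewpoint, and the horizontal line a ratio of 1. In the interzone bin 6 stays above 1 to its left through the limit, in the phalange 2 of the 13 bins to its left are just under 1, and bin 11 peaks outside the right limit at 3.73 for the interzone and 4.04 for the phalange.

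The lean of contacts to one side changed along the domain, with the same sign in both libraries at most bins. Partners 80 kb to 320 kb away on the left were set over those on the right, inside or outside the domain. The log2 ratio was -0.80 for the interzone and -0.70 for the phalange at bin 1, which means more contacts to the right, and 0.74 and 0.46 at bin 16, where the lean was to the left. Few contacts crossing the limits is how the domain was chosen, so the leans of these end bins follow from that choice. Inside, the ratio was 1.09 and 0.69 at bin 6, where the lean was to the left. It was -0.69 and -0.39 at bin 11 and -0.75 and -0.58 at bin 12, to the right. These signs were the same with the coverage-scaled expectation at bins 1, 6, 11, 12 and 16. The signs of the libraries differed at bin 8 (0.15 for the interzone, -0.08 for the phalange), bin 9 (0.09 and -0.09) and bin 14 (-0.003 and 0.31). With the coverage-scaled expectation the interzone value at bin 9 was -0.01. The fragments of a bin itself enter both sides, but those of its partners differ between the sides. What part of the lean goes with the partners was not tested.

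Inside the domain, the bins with the most contacts at 80 kb or more were bins 2, 11 and 16 in the interzone and bins 11, 1 and 3 in the phalange. Bin 2 held 1.41 times the distance expectation for the interzone (450 pairs) and 1.25 times for the phalange (251 pairs). Bin 11 held 1.33 (491 pairs) and 1.49 (331 pairs), bin 16 held 1.33 (610) and 1.15 (329), bin 1 held 1.29 (568) and 1.30 (361), and bin 3 held 1.26 (455) and 1.27 (284). The lowest was bin 13 in the interzone at 0.948 and bin 10 in the phalange at 0.893. Fragment coverage moved these ranks. Scaled for it, bin 11 stood at 0.875 and 0.880, bin 2 at 1.07 and 0.934, bin 16 at 1.16 and 1.02 and bin 1 at 1.15 and 1.12.

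The number of listed pairs crossing each 10 kb bin, within 100 kb on each side, gave a profile with highs and lows in both parts. Relative to the locus median on a log2 scale, it was highest in the right part. It reached 0.59 there in the bin starting at 42810001 for the interzone and 0.43 at 42830001 for the phalange. In the left part it rose to 0.30 at 42430001 for the interzone and to 0.25 at 42460001 for the phalange. The lowest bin was at 42530001 for the interzone (-0.35), inside the left part, and at the left limit for the phalange (-0.37). The numbers were not divided by possible pairs, so the number of fragments in a bin enters them. The Spearman rho of the profiles was 0.791 and the Pearson r 0.827 across 64 overlapping bins, given as a description.

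Inner minima with a prominence of at least 0.1 numbered 5 for the interzone and 4 for the phalange, and 3 were shared within 10 kb. The most prominent shared one was in the bin from 42530001 to 42540000, with a prominence of 0.86 for the interzone and 0.51 for the phalange and scores of -0.35 and -0.26. It lies in bin 6. The shared minimum at 42710001 to 42720000, in bin 11, had a prominence of 0.14 for the interzone and 0.33 for the phalange. Bin 11 held 52 fragments, the fewest in the domain. The one at 42350001 to 42360000 was shallow, with 0.17 and 0.11. By signal in place of listed pairs, 0 minima were shared: the phalange then had minima at 42560001 (0.34) and 42710001 (0.50), and the interzone kept the one at 42530001 (0.63). With a 200 kb diamond the single inner minimum was at 42620001 for the interzone and at 42540001 for the phalange.

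**Figure D4:**
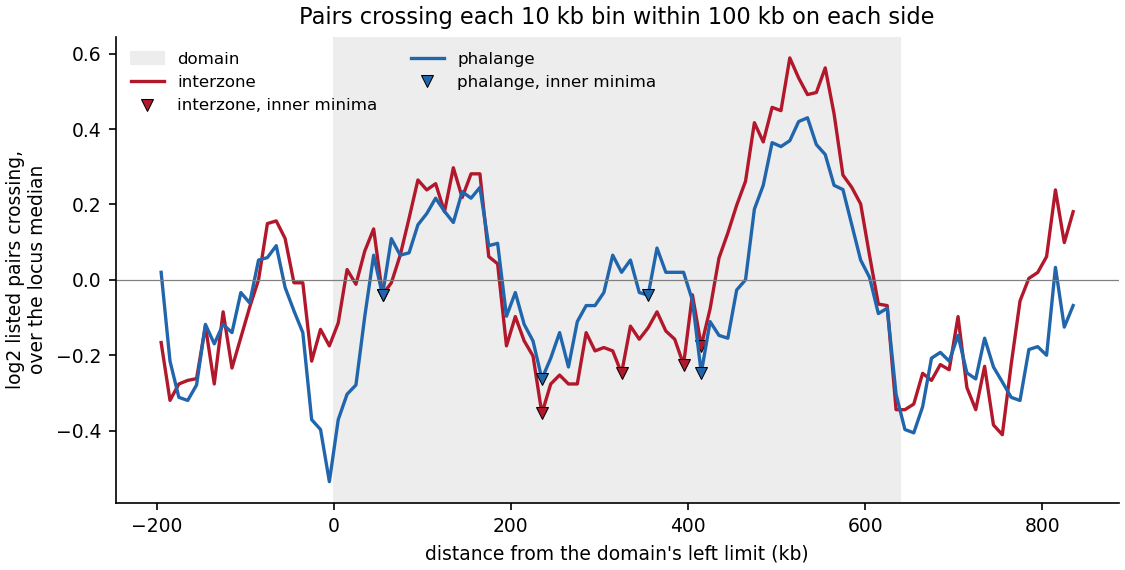
Listed pairs crossing each 10 kb bin within 100 kb on each side, as log2 over the locus median (vertical), along the domain (grey) and 200 kb beyond it (horizontal, kb from its left limit), red for the interzone and blue for the phalange. Triangles are inner minima; both libraries have one 230 to 240 kb from the left limit, and both peak between 510 and 540 kb.

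Among pairs 20 kb or more apart, fragments of the domain made more of their contacts outside it than within it. Of the signal of pairs 20 kb or more apart with at least 1 fragment in the domain, 28.5% stayed inside for the interzone and 24.2% for the phalange, where distance alone would give 27.8% and 24.7%. Contacts to the left took 49.1% and 52.8%, where distance alone would give 47.8% and 50.6%. Contacts to the right took 22.3% and 23.0%, where it would give 24.4% and 24.7%. By listed pairs, 29.0% stayed inside for the interzone (5901 of 20317, Wilson 95% interval 28.4 to 29.7) and 25.2% for the phalange (3443 of 13653, 24.5 to 26.0). Left contacts were at 1.10 times the distance expectation for the interzone and 1.12 times for the phalange, and right contacts at 0.961 and 0.986 times. Distance alone would keep 27.5% of interzone and 24.2% of phalange listed pairs inside. Nothing is read from these shares, since the limits were chosen for few crossing contacts. More outward contacts went to the left than to the right in both libraries, as they would by distance alone. These shares were not set against the coverage-scaled expectation.

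For each pair of 40 kb bins, interzone and phalange were set against each other, each relative to its own mean at the same bin distance over the locus. Of 119 bin pairs with at least 20 listed pairs, 1 was more than 2-fold higher in the interzone, or 0.840%, where 1.35% of 1115 bin pairs of the locus were. In the phalange direction it was 0 of 119, where 1.35% of the locus were. The domain's share of such differences was at or under the background. Log2 ratios lay between -0.99 and 1.34 with a median of -0.06, and their median size was 0.22, against 0.26 over the locus.

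The bin pair past 2-fold was bin 10 (42660001 to 42700000) with bin 13 (42780001 to 42820000), at a log2 ratio of 1.34. It held 62 interzone pairs, 1.05 times the distance expectation, and 14 phalange pairs, 0.403 times. The interzone's share of both was 81.6% (Wilson 95% interval 71.4 to 88.7), and the share at that distance in the locus was 63.0%. The value thus stood out as low in the phalange rather than high in the interzone. The next were bin 5 with bin 14 (18 and 6 pairs, log2 ratio 0.83) and bin 2 with bin 11 (20 and 7 pairs, 0.77), and both intervals of the interzone share, 55.1 to 88.0 and 55.3 to 86.8, included the 61.5% of the locus.

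In the other direction, bin 6 with bin 11 held 17 interzone pairs (0.748) and 21 phalange pairs (1.5), a log2 ratio of -0.99. With the coverage-scaled expectation it was under 1 in both libraries, at 0.435 and 0.775. This pair joins the bins that hold the shared inner minima at 42530001 and 42710001, of which the second was shallow in the interzone. Its interzone share was 44.7% (30.1 to 60.3, an interval that excludes the locus share), where the locus had 61.8%. Bin 8 with bin 15 held 29 and 34 pairs (-0.87) and bin 3 with bin 14 held 15 and 17 (-0.74). Intervals excluded the share of the locus for 5 of the 119 bin pairs (4.20%), against 6.91% over the locus.

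Apart from such single differences the maps followed each other. Across the 120 bin pairs the Spearman rho of observed over expected signal was 0.582. By listed pairs it was 0.643 with a Pearson r of 0.682, and over 1185 bin pairs of the locus at the same separations 0.718 and 0.744. Bin pairs share fragments and libraries, and part of the resemblance moves with fragment coverage: with the coverage-scaled expectation rho was 0.607 in the domain and 0.667 over the locus.

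**Figure D5:**
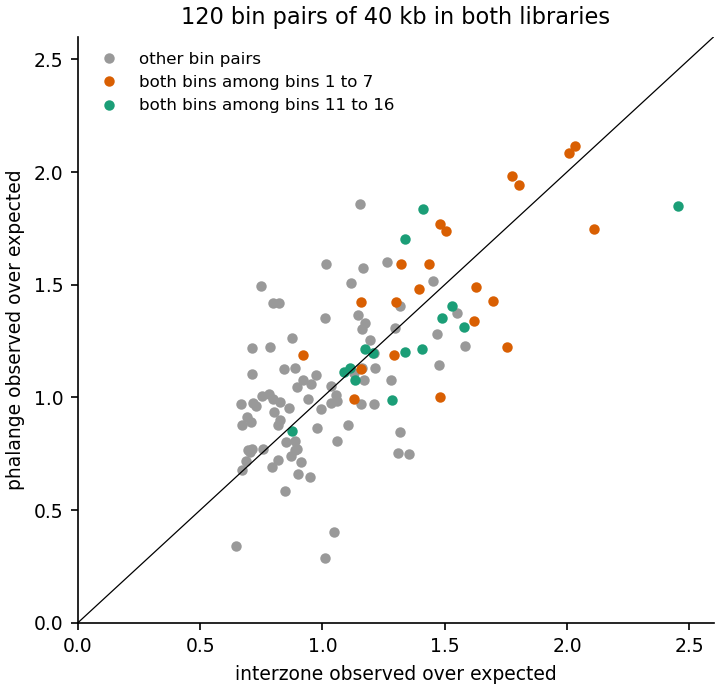
Observed over expected listed pairs in the phalange (vertical) against the interzone (horizontal) for 120 pairs of 40 kb bins, with the line of equality; orange points have both bins among bins 1 to 7, green points among bins 11 to 16, and grey points are the others. Orange points reach above 2 on both axes, and the green point farthest to the right is bin 11 with bin 16 at 2.45 and 1.85.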

How the data were processed

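Targeted chromatin capture values for pairs of restriction fragments were used as deposited, 1 pooled library per tissue. The authors deposited a signal for each listed pair, a column name taken from the header of the interzone file; the phalange file has no such line and the same 8 columns. The aligner's role, removal of duplicates, filters and the normalization of the signal are not given in the sources used here; the submitters' processing notes name BWA, FastQC and galGal5. The reciprocal of the signal was a whole number (within 1e-06) for 95.2% of interzone and 96.3% of phalange pairs of the domain at 20 kb or more. No read numbers were inferred, and depth is unknown.

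Fragments were numbered by start over both lists, and pairs of neighbours were left out. The expected value per possible pair was the mean of the locus in distance classes of 500 bp under 20 kb and 10 kb above. Shares carry Wilson 95% intervals and listed pairs exact Poisson 95% intervals. Ratios of libraries used 40 kb bins, a minimum of 20 listed pairs and a pseudocount of 0.5. Crossing pairs were summed in 10 kb bins over a 100 kb diamond. No test was made, as there is 1 library per tissue. Bin pairs named were the 3 highest by observed over expected per library, the 3 largest and 3 smallest ratios, the 3 highest bins and the lowest, the 5 repeated fragment pairs of highest signal, shared inner minima and the pair of end bins. The domain and these rules were chosen with earlier results of these data known. Parts of the map, viewpoints and the coverage-scaled bin pairs were chosen after seeing the data. The measures were tried on simulated lists in which listing depended on distance and planted changes, not on fragment length or coverage. Those lists cannot show how the measures behave where coverage follows fragment length. Python 3.11.15, NumPy 2.4.6, pandas 2.3.3, SciPy 1.17.1 and Matplotlib 3.10.9 were used.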

Additional observations from a re-analysis of the deposited data

Results flagged for a closer look

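Pairs of adjacent fragments, which the comparisons left out, held 89.2% of all signal of the domain in the interzone and 88.0% in the phalange. They stand here as a strong signal in data outside the main measurement; there is no control library to set them against, and the smallest listed values were 6.82e-05 and 7.19e-05. There were 1154 such pairs in the interzone and 1152 in the phalange, with a median signal of 0.0785 and 0.0977.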

How the results depend on the processing

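The share of domain signal at 100 kb or more depended most on the processing. The difference of 4.27 percentage points turned to -3.18 without pairs under 20 kb (53.0% in the interzone, 56.2% in the phalange). It was 2.57 by listed pairs (28.8% and 26.3%), 2.18 at 200 kb or more (4.05% and 1.87%), 0.423 with adjacent pairs kept (0.835% and 0.412%) and 4.90 without the highest 0.1% of pairs (8.63% and 3.73%). Leaving out short pairs or keeping adjacent ones changes the denominator by construction. The share under 5 kb was 27.4% and 39.7% by listed pairs.

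Observed over expected signal, 1.07 in the interzone and 1.03 in the phalange, was 1.13 and 1.14 by listed pairs and fell below 1, to 0.900 and 0.836, with fragment coverage in the expectation. It was 1.04 in the interzone with the domain narrowed by 40 kb on each side and 1.08 in the phalange for pairs 40 kb or more apart. The slopes were -0.761 and -0.649 by listed pairs (difference -0.112), -0.814 and -0.810 in 20 kb bins (-0.00423) and -0.663 and -0.564 from 20 kb to 300 kb (-0.0995). The share of signal inside the domain was 24.7% and 21.3% for pairs 40 kb or more apart, 24.2% and 21.05% in the narrowed domain, and 25.2% in the phalange by listed pairs.

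Bin pairs past 2-fold, 1 higher in the interzone and 0 in the phalange of 119 tested, numbered 4 and 1 of 119 by signal. They numbered 8 and 5 of 195 in 20 kb bins, 0 and 0 of 28 in 80 kb bins, and 5 and 8 of 119 past 1.5-fold. In the locus 3.14% and 3.32%, 4.59% and 3.40%, 0 and 0, and 7.44% and 9.51% were past the same limits. With at least 40 listed pairs it was 1 and 0 of 88, where 0.418% and 0.836% of the locus were. The correlation of 0.582 was 0.643 by listed pairs, 0.336 in 20 kb bins, 0.720 in 80 kb bins and 0.585 without the highest 0.1%. The 7 bin pairs at 1.5 or more in both libraries fell to 1 with fragment coverage in the expectation.

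Inner minima, 5 in the interzone, 4 in the phalange and 3 shared, numbered 8, 11 and 5 when the diamond was 50 kb wide, 1, 1 and 0 when it was 200 kb wide, and 1, 2 and 1 at a prominence of 0.2. By signal there were 2 in the phalange and 0 shared. Without bins of few listed pairs the numbers were 4, 3 and 2. For these values the cause was not tested. No paired analysis was possible because each tissue had 1 library. Depth is unknown, and single bin pairs rest on few listed pairs, with a median of 63 in both libraries together.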

Other observations

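Pairs with few fragments between them fell off steeply in signal. With 1 fragment in between, the median signal in the domain was 0.00229 in the interzone (876 pairs) and 0.00337 in the phalange (907 pairs). With 2 in between it was 0.000829 and 0.000987, and with 5 in between 0.000359 and 0.000348. The phalange was thus the higher of the libraries next to a fragment, and the order had turned by 5 fragments. Medians of the whole locus were 0.00257 and 0.00364 with 1 in between and 0.000355 and 0.000357 with 5.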
